A study of Mus musculus with 7 samples.

Results

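*Srf* and 9 genes that build or regulate the actin cytoskeleton were examined in RNA-seq of muscle stem cells (MuSCs). The rows of the count table with the symbols *Srf*, *Actb*, *Actg1*, *Cfl1*, *Tpm1*, *Tpm3*, *Tpm4*, *Flna*, *Svil* and *Vcl* were taken, 10 of 13280 genes, and all 10 were among the 11134 genes tested (5 reads or more in 2 or more libraries). The members were selected on their CPM and on the difference between Gli1+ and Gli1- MuSCs in these same libraries, so their differences between the groups are described and not tested.

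MuSCs were sorted from digested, uninjured hindlimb muscle of adult Gli1-CreERT2; R26-tdT mice (strain background C57BL/6 in the labels), 3 days after tamoxifen (TAM). The study's methods give a mixed background of this strain and another. The gate was CD45-CD31-Sca1-VCAM1+, and the cells were divided by tdTomato into 4 libraries of tdT+ (Gli1+) MuSCs and 3 libraries of tdT- (Gli1-) MuSCs. Both groups carried the Cre driver and the reporter and both had received TAM. Cre was expressed from the *Gli1* locus, so tdTomato marked cells in which that locus was active when TAM was given and in which recombination had occurred, and a tdT- cell may still have expressed *Gli1*. Whether a library came from a single mouse or from a pool could not be taken from the labels or methods, and the spread between libraries may be partly technical.

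SRF (serum response factor) is a MADS-box transcription factor that binds CArG boxes, short DNA elements with an A/T-rich core. With the MRTF cofactors, which are held in the cytoplasm by monomeric actin and released when actin polymerises, it drives genes of the actin cytoskeleton, its own gene among them. With ternary complex factors of the ETS family it drives immediate early genes such as *Fos* and *Egr1*. In MuSCs, SRF is known for its part in the actin cytoskeleton and in fusion with growing myofibres.

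The libraries held 10595181 to 13781283 reads assigned to genes in Gli1+ and 12808512 to 19662721 in Gli1- MuSCs. They differed more in how many genes were read than in depth. Of the tested genes, 51.5% and 39.5% had no read in Gli1- replicates 2 and 3, while the other 5 libraries lacked 7.14% to 24.9% of them. *Gli1* itself was read in 4 of 4 Gli1+ libraries (7.28 to 50.3 CPM, the counts scaled to library size with edgeR's TMM factors) and in 1 of 3 Gli1- libraries (11.6 CPM in replicate 1). *Pax7*, a paired-box factor and the defining marker of MuSCs, was read in all 7 libraries (222 to 555 CPM). Across all genes, none passed an adjusted p of 0.05 in edgeR's quasi-likelihood test or in limma-voom (238 genes, 2.14%, had an unadjusted p under 0.05 in edgeR), while DESeq2 called 66 of 10191 (0.648%).

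The upstream regions show where members hold the element that SRF binds. RefSeq promoter windows (GRCm38.p6, 250 bases before to 50 after a start site) were matched by symbol for 8 of the 10 members, *Tpm3* with 2 windows, and not for *Actb* and *Svil*. The kinds of motif searched on both strands were the CArG box (a palindromic pattern of 10 bases), the ETS motif CCGGAAG and the GC box GGGCGG. The 3 windows with a CArG box are printed 5′ to 3′ on the gene's strand up to the base before the start site, with each CArG box in capitals.
Srf, chr17:46556163-46556412, minus strand: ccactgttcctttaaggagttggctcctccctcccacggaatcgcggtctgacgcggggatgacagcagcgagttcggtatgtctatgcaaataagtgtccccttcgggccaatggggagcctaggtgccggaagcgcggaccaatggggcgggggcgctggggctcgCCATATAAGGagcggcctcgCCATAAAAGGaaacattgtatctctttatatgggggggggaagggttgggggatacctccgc
Actg1, chr11:120348496-120348745, minus strand: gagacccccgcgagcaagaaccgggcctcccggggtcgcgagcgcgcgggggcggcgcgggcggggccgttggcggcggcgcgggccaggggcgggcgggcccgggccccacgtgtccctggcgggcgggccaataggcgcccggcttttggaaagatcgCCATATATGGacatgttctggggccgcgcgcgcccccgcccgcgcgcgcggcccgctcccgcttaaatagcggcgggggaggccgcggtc
Vcl, chr14:20929148-20929397, plus strand: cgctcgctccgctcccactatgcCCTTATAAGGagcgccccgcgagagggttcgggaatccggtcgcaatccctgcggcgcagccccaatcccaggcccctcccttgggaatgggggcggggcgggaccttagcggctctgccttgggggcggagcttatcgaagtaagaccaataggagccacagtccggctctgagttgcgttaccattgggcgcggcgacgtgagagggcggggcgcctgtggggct

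*Srf* held a pair of CArG boxes, at bases -82 to -73 and -62 to -53 from its start site, and an ETS motif at -122 to -116. *Actg1* held 1 CArG box at -90 to -81, and *Vcl* held 1 at -227 to -218. None of these CArG boxes overlapped an ETS motif or a GC box. No CArG box was in the windows of *Cfl1*, *Tpm1*, *Tpm3*, *Tpm4* and *Flna*, which says only that the pattern was not in these 300 bases. Of all 32851 windows, 535 (1.63%) held a CArG box, and 1.28% of the windows of tested genes, against 3 of the 9 member windows. The ETS motif was in 2 of the 9 (*Srf* and *Cfl1*), with 8.86% of all windows and 17.8% of the windows of tested genes holding it. The GC box was in 8 of the 9, with 35.7% of all windows and 63.7% of the windows of tested genes holding it. The members were chosen as genes of SRF and the actin cytoskeleton, so nothing is read from their share of CArG boxes. A match is a description of sequence, and no binding was measured.

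**Figure D1:**
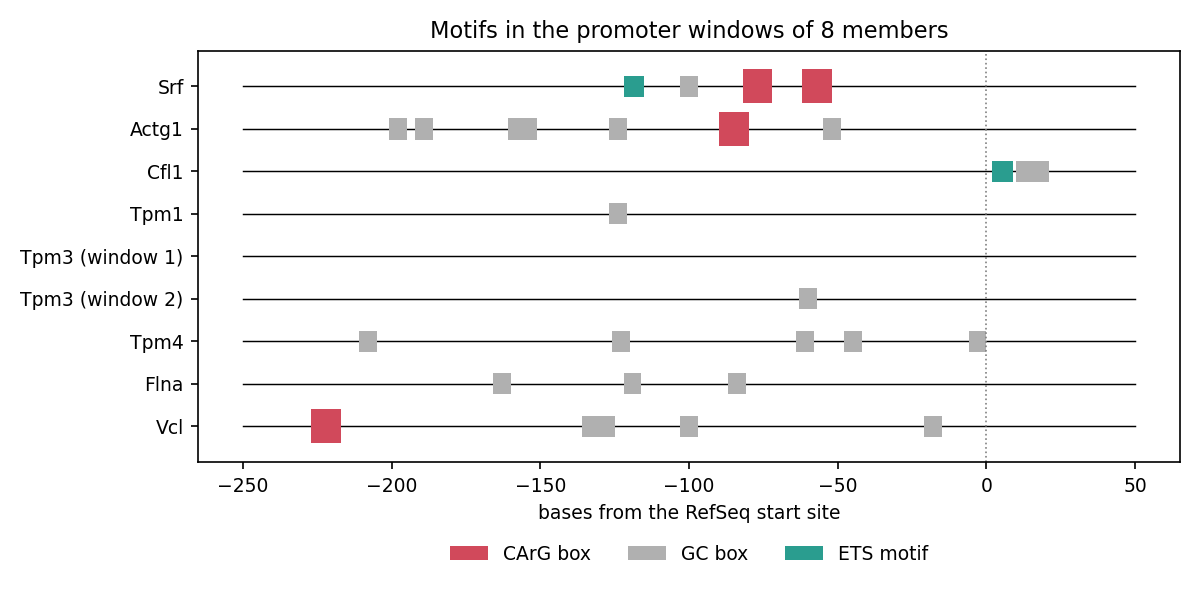
Motif matches in the 9 RefSeq promoter windows of 8 members. The x axis is the distance in bases from the start site, each line is 1 window, and coloured blocks are CArG boxes, ETS motifs and GC boxes on either strand. CArG boxes stand in the windows of *Srf* (2), *Actg1* (1) and *Vcl* (1).

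*Srf* was lower in all 4 Gli1+ libraries than in all 3 Gli1- libraries. It had 222.8, 189.5 and 230.9 CPM in Gli1- replicates 1, 2 and 3, and 106.8, 93.3, 119.7 and 136.6 CPM in Gli1+ replicates 1, 2, 3 and 4. The lowest Gli1- library was thus above the highest Gli1+ library, and the gap between them was larger than the range within either group. The means were 214 ± 22 CPM (SD, n = 3) in Gli1- and 114 ± 18.4 CPM (SD, n = 4) in Gli1+ MuSCs, a level 1.88-fold lower in Gli1+ (edgeR log2 fold change -0.91, SE 0.31). In this bulk RNA, fewer cells of a type and less RNA per cell cannot be told apart. These values rested on 1153 to 4119 reads of *Srf* per library. *Srf* (ENSMUSG00000015605, chr17:46548329-46556175, minus strand) shared no stretch of 31 exonic bases with another gene.

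*Srf* was the only 1 of the 10 members whose groups did not overlap. The same held for 3.81% of all tested genes in either direction and for 0.934% with Gli1+ lower, and, among the 3743 genes read in all 7 libraries, for 4.11% in either direction and 2.11% with Gli1+ lower. *Srf* was chosen knowing this, so nothing is read from its place among these genes. In 17 alternative settings its log2 fold change ran from -1.17 to -0.82.

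**Figure D2:**
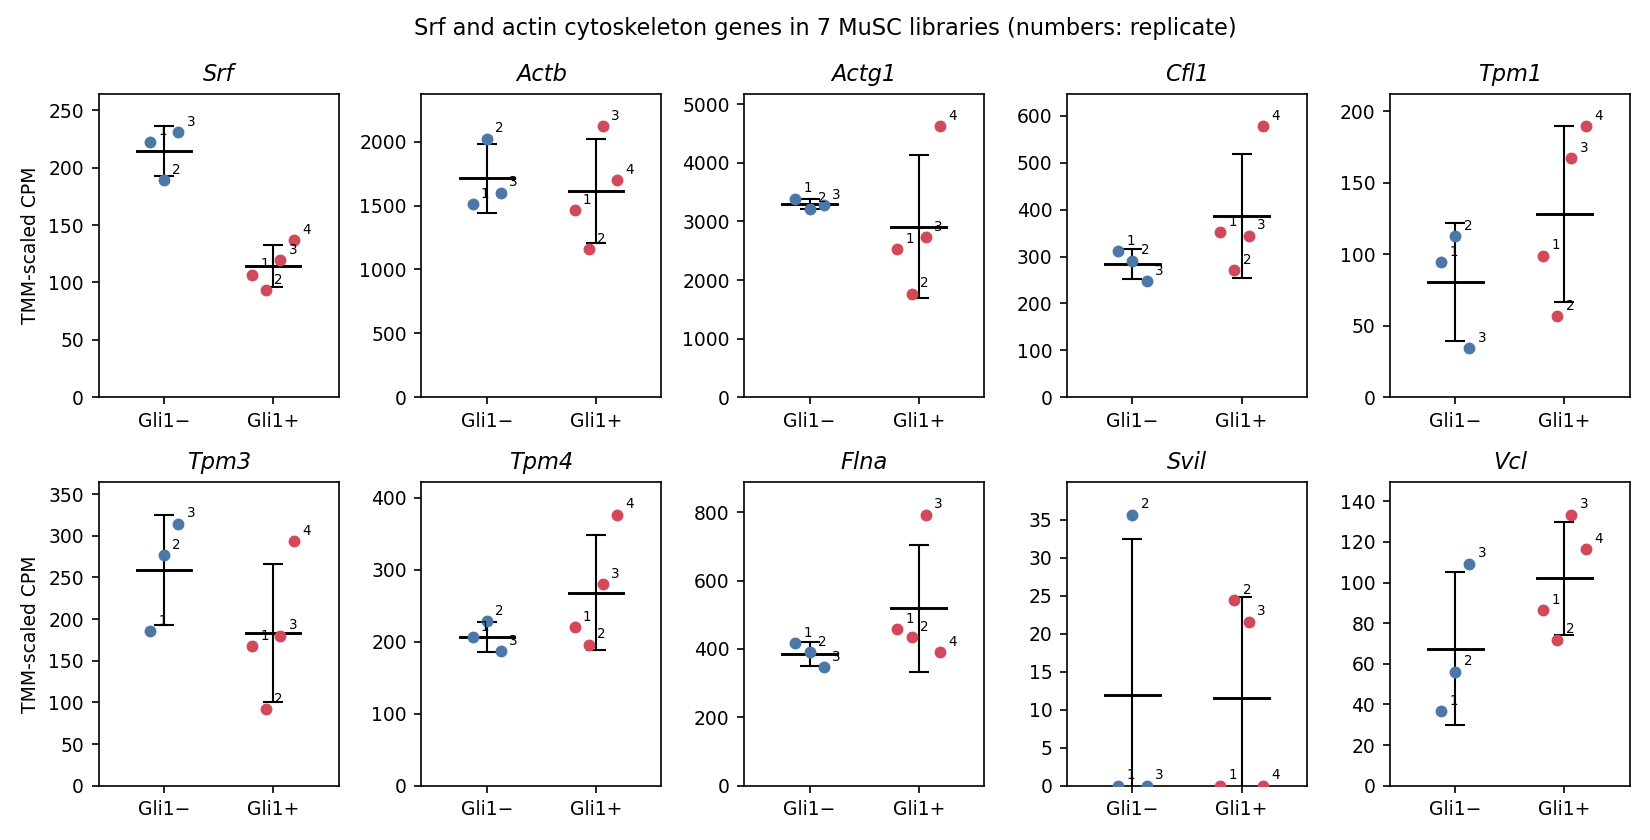
TMM-scaled CPM of the 10 members in each of the 7 libraries, 1 panel per gene with its own y axis from 0. Points are libraries, numbered by replicate, lines are group means and error bars are SD (n = 3 Gli1-, n = 4 Gli1+). Only *Srf* has groups that do not overlap, 189.5 to 230.9 CPM in Gli1- against 93.3 to 136.6 CPM in Gli1+ MuSCs.

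The groups overlapped for both cytoplasmic actins, which form the filaments of non-muscle cells. *Actb* encodes β-actin (ENSMUSG00000029580, chr5:142903115-142906754). It had 1512, 2023 and 1601 CPM in Gli1- and 1463, 1158, 2122 and 1698 CPM in Gli1+ replicates, in replicate order. The values of *Actb* interleaved, with the highest and the lowest library both in Gli1+ MuSCs. The means of *Actb* were 1712 ± 273 CPM (SD, n = 3) and 1610 ± 406 CPM (SD, n = 4), with a log2 fold change of -0.09 (SE 0.32) whose sign turned when Gli1- replicate 2 (0.05), Gli1+ replicate 2 (0.04) or both sparse Gli1- libraries (0.09) were left out.

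*Actg1* encodes γ-actin (ENSMUSG00000062825, chr11:120345690-120348542). It had 3390, 3218 and 3277 CPM in Gli1- and 2525, 1768, 2728 and 4629 CPM in Gli1+ replicates. The 3 Gli1- libraries lay close together, while 3 Gli1+ libraries lay below all of them and replicate 4 lay above. The log2 fold change of *Actg1* was -0.18 (SE 0.37). It was -0.51 without Gli1+ replicate 4 and -0.00021 without Gli1+ replicate 2. *Actb* took 34.1% ± 4.03 (SD, n = 3) of the reads of both actins in Gli1- and 36.7% ± 7.19 (SD, n = 4) in Gli1+ MuSCs, a share that overlapped between the groups. Of the 31-base stretches of *Actb*, 23.5% also occur in other genes, 15.2% in the protein-coding gene *Lrrc58* (36.8 to 102.2 CPM in Gli1- and 39.2 to 150.1 CPM in Gli1+ libraries) and others in processed pseudogenes. Of those of *Actg1*, 40.2% also occur in other genes, mainly processed pseudogenes, so the counts of both depend on how such reads were assigned.

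*Cfl1*, which encodes cofilin 1, a protein that severs actin filaments and frees monomers (ENSMUSG00000056201, chr19:5490455-5495201), had 312, 291.3 and 248.3 CPM in Gli1- and 351.9, 271.6, 344.4 and 578.3 CPM in Gli1+ replicates. Gli1+ replicates 1, 3 and 4 were above all Gli1- libraries, and replicate 2 was not. Its log2 fold change was 0.45 (SE 0.33), and 0.17 without Gli1+ replicate 4. *Cfl1* overlaps *Snx32* on the other strand over 468 exonic bases. *Snx32* had 210 reads in Gli1- replicate 1 and none in the other 6 libraries.

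Tropomyosins wrap along actin filaments and set which partners can bind them. *Tpm1* (ENSMUSG00000032366, chr9:67022590-67049406) had 94.2, 112.8 and 34.1 CPM in Gli1- and 98.9, 56.8, 167.2 and 189.6 CPM in Gli1+ replicates. Gli1+ replicates 3 and 4 were above every other library for *Tpm1*, and replicate 2 was below 2 of the Gli1- libraries. *Tpm3* (ENSMUSG00000027940, chr3:90072649-90100902) had 185.7, 277.1 and 314.8 CPM in Gli1- and 167.5, 92.3, 180.3 and 293.4 CPM in Gli1+ replicates. Gli1+ replicates 1, 2 and 3 were below all Gli1- libraries for *Tpm3*, and replicate 4 was not. *Tpm4* (ENSMUSG00000031799, chr8:72134975-72153142) had 206.1, 228.6 and 186.9 CPM in Gli1- and 220.7, 195.9, 280.4 and 376.8 CPM in Gli1+ replicates, which overlapped. The log2 fold changes were 0.67 (SE 0.52) for *Tpm1*, -0.50 (SE 0.39) for *Tpm3* and 0.37 (SE 0.32) for *Tpm4*. Single libraries moved all of them by over 1.5 times. *Tpm1* was at 0.31 without Gli1- replicate 3 and 0.40 without Gli1+ replicate 4, *Tpm3* at -0.28 without Gli1+ replicate 2 and -0.84 without Gli1+ replicate 4, and *Tpm4* at 0.15 without Gli1+ replicate 4.

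The tropomyosins were also set against each other within a library. Per exonic length, *Tpm3* made up 22%, 27.3% and 36.5% of the 3 tropomyosins in Gli1- and 19.3%, 13.4%, 16.2% and 19.4% in Gli1+ replicates. *Tpm4* made up 67.5%, 62.3% and 59.8% in Gli1- and 70.1%, 78.8%, 69.7% and 68.8% in Gli1+ replicates. Neither share overlapped between the groups, *Tpm3* being lower and *Tpm4* higher in Gli1+ MuSCs, while the share of *Tpm1* overlapped (3.71% to 10.5% against 7.76% to 14.1%). The sizes of these shares depend on the length used. With the longest transcript as the length, *Tpm4* was above *Tpm3* in 4 of 4 Gli1+ but in only 1 of 3 Gli1- libraries. The log2 ratio of *Tpm3* to *Tpm4* reads, which no gene length enters, was 0.29 ± 0.45 (SD, n = 3) in Gli1- and -0.62 ± 0.33 (SD, n = 4) in Gli1+ MuSCs, with ranges of -0.15 to 0.75 and -1.09 to -0.36. Ratios that do not overlap were found for 4.04% of all pairs of genes read in all 7 libraries, and since these members were selected on this contrast nothing is read from theirs. Of 31-base stretches of *Tpm3*, 26.9% also occur in *Tpm3-rs7*, which had 12.6 to 46.6 CPM in Gli1- and 21.1 to 30.7 CPM in Gli1+ libraries. Of those of *Tpm4*, 16% occur in a processed pseudogene.

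*Flna* encodes filamin A, which cross-links actin filaments into networks (ENSMUSG00000031328, chrX:74223461-74249820). It had 416.3, 389.8 and 347.7 CPM in Gli1- and 457.1, 433.8, 793.5 and 390.1 CPM in Gli1+ replicates. Gli1+ replicate 3 stood apart from the other 6 libraries, which lay between 347.7 and 457.1 CPM. The log2 fold change of *Flna* was 0.43 (SE 0.33), and 0.15 without Gli1+ replicate 3.

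*Vcl* encodes vinculin, which links actin filaments to adhesion sites (ENSMUSG00000021823, chr14:20929398-21033676). It had 36.5, 56.1 and 109.3 CPM in Gli1- and 86.3, 71.9, 133.5 and 116.5 CPM in Gli1+ replicates. The Gli1- libraries of *Vcl* were far apart, and replicate 3 lay within the Gli1+ range. The log2 fold change was 0.60 (SE 0.48). Leaving out Gli1- replicate 1 gave 0.29, leaving out Gli1- replicate 3 gave 1.14, and leaving out both sparse Gli1- libraries gave 1.48. The exons of *Vcl* overlap those of *Ap3m1* on the other strand over 2090 bases. *Ap3m1* had no read in Gli1- replicates 2 and 3, 62.8 CPM in Gli1- replicate 1 and 12.7 to 84.2 CPM in Gli1+ libraries. Whether reads were counted by strand could not be taken from the labels or methods.

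*Svil* encodes supervillin, which ties actin and myosin II to the membrane (ENSMUSG00000024236, chr18:4920540-5119299). It was read in 1 of 3 Gli1- libraries (replicate 2, 519 reads, 35.7 CPM) and in 2 of 4 Gli1+ libraries (replicate 2, 335 reads, 24.4 CPM; replicate 3, 237 reads, 21.6 CPM). In the other 4 libraries a count of 0 allows up to 3 reads, which is 0.162 to 0.302 CPM in these libraries, for counting error only. A gene with 237 reads or more in some libraries and none in others gives no usable difference between the groups, and its fitted log2 fold change (-0.05, SE 3.16) changed sign in 6 of 15 alternatives.

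Over the 10 members, log2 fold changes were above 0 for 5 and below 0 for 5, with a median of 0.16. Of all tested genes 34.7% lay below 0, and their median was 0.30. The all-gene median depended on the filter and the libraries. With at least 5 reads required in all 7 libraries it was -0.0061, against 0.30 for the members left (*Svil* dropped out). Without the 2 sparse Gli1- libraries it was -0.044, against 0.31 for the members. The rule used this contrast, and nothing is read from these counts and medians. Together the members took 0.599% to 0.775% of all reads in Gli1- and 0.415% to 0.715% in Gli1+ libraries.

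Ratios within a library do not depend on how libraries are scaled. *Srf* had 14.7, 9.37 and 14.4 reads per 100 reads of *Actb* in Gli1- and 7.3, 8.06, 5.64 and 8.04 in Gli1+ replicates, with no overlap. Its log2 ratio to another member was lower in all Gli1+ than in all Gli1- libraries for *Actb*, *Actg1*, *Cfl1*, *Tpm1*, *Tpm4*, *Flna* and *Vcl*, 7 of the 8 members other than *Srf* that were read in all 7 libraries. *Tpm3* was the exception (-0.55 to 0.26 in Gli1- against -1.10 to 0.02 in Gli1+ MuSCs). The same held for 33.1% of the 3742 other genes read in all 7 libraries, and since *Srf* was chosen for this contrast its ratios carry that choice. The ratio to *Tpm4* had the smallest spread in Gli1+ MuSCs, 0.05 ± 0.29 (SD, n = 3) in Gli1- and -1.20 ± 0.19 (SD, n = 4) in Gli1+ MuSCs. Of the 28 pairs among those 8 members without *Srf*, 6 had ratios that did not overlap, 4 of them with *Tpm3* (with *Cfl1*, *Tpm1*, *Tpm4* and *Vcl*) and 2 with *Actg1* (with *Cfl1* and *Tpm4*). Over all pairs of genes read in all 7 libraries it was 4.04%, and the choice of the members enters their count.

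**Figure D3:**
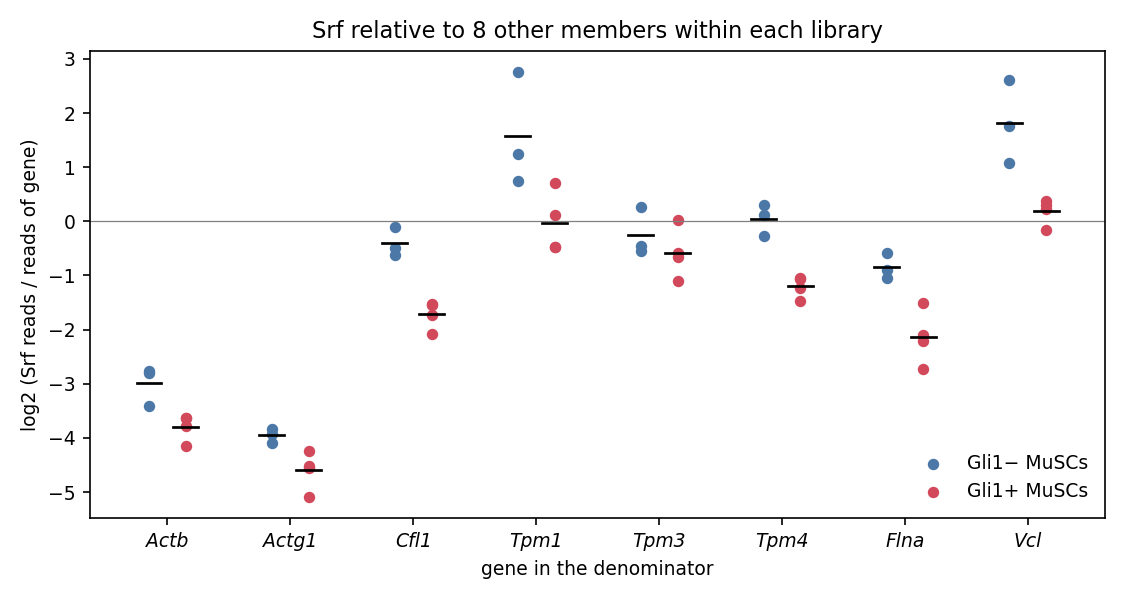
Log2 ratio of *Srf* reads to the reads of each of 8 other members, within each library. The y axis is the log2 ratio, points are libraries (3 Gli1-, 4 Gli1+) and black lines are group means. The groups do not overlap for any denominator except *Tpm3*.

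Levels of different genes were compared as CPM per kb of exonic sequence. *Actg1* was highest, with a mean of 1157 CPM per kb over the 7 libraries, followed by *Actb* (617), *Cfl1* (120.5), *Tpm4* (109.9), *Srf* (54.3), *Flna* (49.1), *Tpm3* (35.5), *Tpm1* (16.6), *Vcl* (10.64) and *Svil* (1.09). *Actg1* was above *Actb*, *Actb* above *Cfl1*, *Tpm4* above *Srf*, *Tpm3* above *Tpm1* and *Vcl* above *Svil* in 7 of 7 libraries. The neighbours *Cfl1* and *Tpm4* kept their order in 5 of 7 libraries, as did *Tpm1* and *Vcl*, and on this length they do not differ beyond their spread. *Srf* was above *Flna* in 3 of 3 Gli1- and in 1 of 4 Gli1+ libraries, and *Flna* above *Tpm3* in 4 of 7. With the longest transcript as the length, *Cfl1* was above *Tpm4* in 7 of 7 libraries and *Tpm1* above *Vcl* in 6 of 7, and *Tpm3* (90.9 CPM per kb) stood above *Srf* (60.1 CPM per kb).

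**Figure D4:**
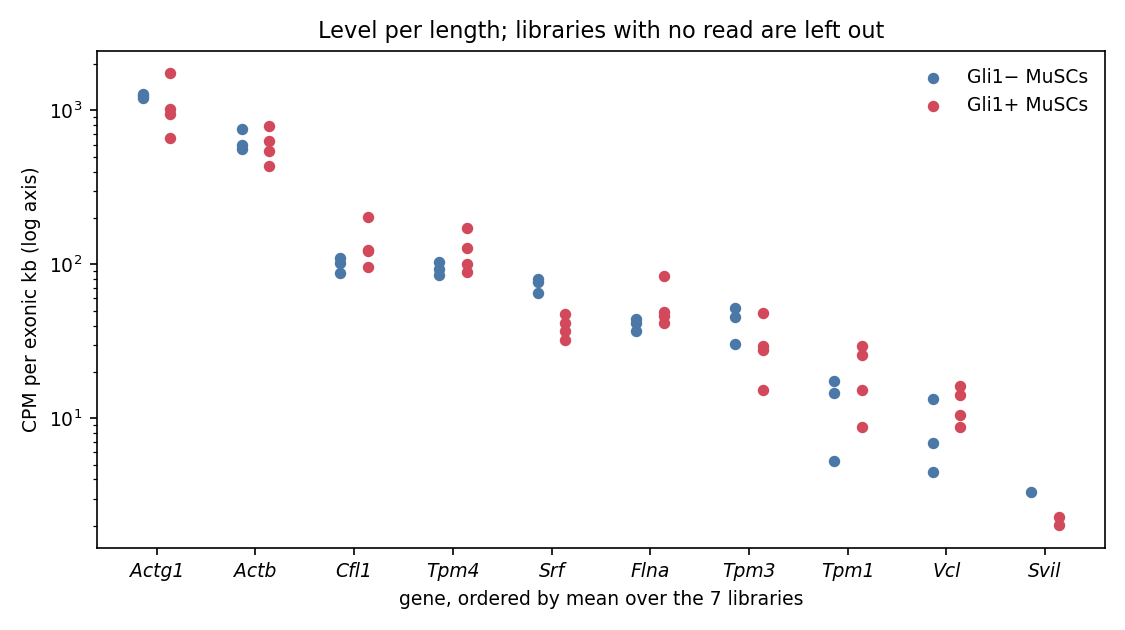
CPM per exonic kb of the 10 members on a log axis, ordered by the mean over 7 libraries. Points are libraries (3 Gli1-, 4 Gli1+), and the 4 libraries without a read of *Svil* are left out. The cytoplasmic actins *Actg1* (mean 1157) and *Actb* (617) lie above all other members in every library.

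The genes most like *Srf* were found among 6191 tested genes with a mean of at least 20 CPM, by the root-mean-square difference of centred log2(CPM + 1) values over the 7 libraries. They were *Sin3b* (0.17), *Txnrd1* (0.21), *Csnk1d* (0.22), *Fgfr1* (0.26) and *Nab1* (0.26). *Sin3b*, a corepressor scaffold, had 129.3, 110.2 and 100.2 CPM in Gli1- and 57.8, 49.9, 62.2 and 58.8 CPM in Gli1+ replicates. *Fgfr1*, a growth factor receptor, had 752.9, 708.9 and 893.5 CPM in Gli1- and 636.4, 471.4, 545.8 and 602.1 CPM in Gli1+ replicates. Among the members, *Actg1* ranked 103, *Tpm3* 137 and *Actb* 258 in likeness to *Srf*, and *Tpm4*, *Cfl1*, *Flna*, *Vcl* and *Tpm1* ranked from 1194 to 3033. Likeness here is a description over 7 libraries that share their preparation.

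Other genes of the pathway were taken from 8 lists by function, 134 genes with the members left out, of which 131 were tested. In edgeR, 2 of the 131 had an unadjusted p under 0.05 with Gli1+ higher, against 1.53% of all genes, and 0 with Gli1+ lower, against 0.611%. None passed an adjusted p of 0.05. The 2 genes became 6 without Gli1- replicate 1, 1 without Gli1+ replicate 3 or 4, and 0 without Gli1- replicate 3. Among the 131, 84 lay above 0 and 47 below on the log2 scale. Their median was 0.19, against 0.30 for all genes, which depended on the filter. In 3 of them the groups did not overlap, with all 3 higher in Gli1+ MuSCs (*Elk3*, *Cttn* and *Ssh3*, the last named after its values were seen), against 2.87% of all genes.

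Of the cofactors and upstream regulators of SRF, 11 of 17 tested lay above 0 and 6 below (median 0.37). None had an unadjusted p under 0.05 in edgeR, and 1 did in limma-voom. The MRTF genes were too thinly read to compare. *Mrtfa* had 276, 0 and 209 reads in Gli1- and 117, 66, 0 and 0 in Gli1+ replicates. *Mrtfb* had 615, 0 and 119 reads in Gli1- and 186, 186, 0 and 0 in Gli1+ replicates. Each MRTF gene was thus read in 2 libraries of each group and missing from the rest. *Rhoa*, the GTPase whose activity promotes actin polymerisation, was level at 286 ± 54.5 CPM (SD, n = 3) in Gli1- and 289 ± 79.2 CPM (SD, n = 4) in Gli1+ MuSCs (log2 fold change 0.01, SE 0.32). *Elk3*, a ternary complex factor, had 87, 0 and 0 reads in Gli1- and 157, 213, 304 and 344 reads in Gli1+ replicates (edgeR unadjusted p = 0.202, adjusted p = 1). *Diaph1*, a formin downstream of RhoA, had 29.8, 77 and 96.1 CPM in Gli1- and 22.7 to 49.4 CPM in Gli1+ libraries (edgeR log2 fold change -1.02, SE 0.83).

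The cytoskeletal targets of SRF showed 18 of 25 genes above 0 and 7 below (median 0.19). *Actc1*, cardiac α-actin, was the only 1 of them past an unadjusted threshold of 0.05 (edgeR's quasi-likelihood test across all genes, adjusted p = 1). It had 0 reads throughout Gli1- and 110, 56, 231 and 0 reads in Gli1+ replicates. *Csrp1*, a LIM protein of actin bundles, had 126 ± 38.7 CPM (SD, n = 3) in Gli1- and 189.5 ± 80.1 CPM (SD, n = 4) in Gli1+ MuSCs. *Ccn1*, a matricellular protein and the most abundant of the list per length, had 2832 ± 1036 CPM (SD, n = 3) and 2883 ± 631 CPM (SD, n = 4). *Tpm2*, a tropomyosin found in skeletal and smooth muscle, had 13.4, 18 and 0 CPM in Gli1- and 5.37, 11.3, 171.8 and 61.8 CPM in Gli1+ replicates. Its difference thus rested on Gli1+ replicates 3 and 4.

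Of the immediate early targets of SRF, 8 of 9 lay below 0 and 1 above (median -0.21), with none at an unadjusted p under 0.05 in edgeR. DESeq2 and limma-voom each had 1 gene of this list under that threshold. *Fosb*, which had the smallest p, had 5046, 2723 and 3980 CPM in Gli1- and 3319, 2370, 3025 and 1815 CPM in Gli1+ replicates, which overlapped (edgeR log2 fold change -0.57, SE 0.35, unadjusted p = 0.13). *Egr2*, a zinc-finger transcription factor, followed (log2 fold change -0.44, SE 0.37), as did *Nr4a1*, an orphan nuclear receptor (-0.44, SE 0.42). *Fos*, the most abundant of them per length, had 3205 to 11230 CPM in Gli1- and 4410 to 9495 CPM in Gli1+ libraries (log2 fold change 0.04, SE 0.46). The list summed to 46300, 19320 and 30250 CPM in Gli1- and 34810, 30320, 25780 and 21000 CPM in Gli1+ replicates, which overlapped. These genes are also known to be induced while muscle is digested for sorting, and the part of that in these levels was not tested.

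Genes that act on actin monomers and filaments mostly lay above 0, like most genes in the table. Of 15 genes of monomer binding and turnover, 12 lay above 0 and 3 below (median 0.36). *Tmsb4x*, thymosin β4, which sequesters monomers, had 880.5 ± 318 CPM (SD, n = 3) in Gli1- and 998 ± 462 CPM (SD, n = 4) in Gli1+ MuSCs. Destrin (*Dstn*), a relative of cofilin, had a log2 fold change of 0.36 (SE 0.32), muscle cofilin (*Cfl2*) one of 0.37 (SE 0.34) and profilin 1 (*Pfn1*) one of 0.35 (SE 0.42). *Ssh3*, a cofilin phosphatase, averaged 7.5 CPM in Gli1- and 27.4 CPM in Gli1+ MuSCs. It had 9.85, 0 and 12.65 CPM in Gli1- and 23.4, 27.45, 40.2 and 18.3 CPM in Gli1+ replicates. Its difference did not pass the test (edgeR log2 fold change 1.87, SE 2.23, unadjusted p = 0.418).

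Of 25 genes of nucleation, branching and capping, 14 lay above 0 and 11 below (median 0.16). *Fmnl3*, a formin, had an unadjusted p of 0.0478 in edgeR (adjusted p = 1), with no read in 3 of 3 Gli1- libraries and 0, 0, 329 and 205 reads in Gli1+ replicates. *Diaph3*, another formin, was missing from all 3 Gli1- libraries and had 56, 0, 75 and 91 reads in Gli1+ replicates (edgeR unadjusted p = 0.0508). Gli1- replicates 2 and 3 lacked reads for many genes, which bears on each such comparison. *Cttn*, cortactin, which stabilises branched actin, was read in all 7 libraries, with 92.9, 62.8 and 63.7 CPM in Gli1- and 98.5, 111, 118.2 and 118.4 CPM in Gli1+ replicates. Its groups did not overlap, and the difference did not pass the test (edgeR log2 fold change 0.61, SE 0.38, unadjusted p = 0.131, adjusted p = 1). *Brk1*, a subunit of the WAVE complex and the most abundant of the list per length, had a log2 fold change of -0.17 (SE 0.45).

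Of 14 tropomyosin and non-muscle myosin genes, 9 lay above 0 and 5 below (median 0.28), and 0 had an unadjusted p under 0.05. *Myl12a*, a regulatory light chain and the most abundant of them per length, had 658 ± 44.9 CPM (SD, n = 3) in Gli1- and 748 ± 114 CPM (SD, n = 4) in Gli1+ MuSCs. *Tmod3*, which caps pointed ends, had 29.2 to 86.6 CPM in Gli1- and 38.7 to 179.3 CPM in Gli1+ libraries. The row of *Myl12b* was read in 2 libraries only, with 1083 reads in Gli1+ replicate 2 and 16 in Gli1- replicate 2.

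Of 21 genes of cross-linking and membrane linkage, 15 lay above 0 and 6 below (median 0.14). *Actn1*, α-actinin 1, had 78.2, 74.4 and 117 CPM in Gli1- and 59.3, 210.6, 195.7 and 202.7 CPM in Gli1+ replicates. Gli1+ replicates 2, 3 and 4 were thus above all Gli1- libraries, with replicate 1 below them (edgeR log2 fold change 0.90, SE 0.45, unadjusted p = 0.0714). *Msn*, moesin, had a log2 fold change of 0.38 (SE 0.35) and *Lasp1*, an actin-binding LIM and SH3 protein, one of 0.55 (SE 0.56). *Gsn*, gelsolin, which severs and caps filaments and was the most abundant of the list per length, had means of 1865 ± 417 CPM (SD, n = 3) in Gli1- and 2050 ± 708 CPM (SD, n = 4) in Gli1+ libraries.

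Of 21 focal adhesion genes, 14 lay above 0 and 7 below (median 0.21). *Sorbs3*, vinexin, a binding partner of vinculin, had 185.7, 254 and 273.8 CPM in Gli1- and 99.1, 67.4, 217.1 and 153 CPM in Gli1+ replicates. Only Gli1+ replicate 3 reached into the Gli1- range (edgeR log2 fold change -0.83, SE 0.40, unadjusted p = 0.0618). *Itgb1*, the β1 integrin, had 468 ± 19.69 CPM (SD, n = 3) and 542 ± 91.4 CPM (SD, n = 4), and its partner *Itga7*, the laminin-binding α7 integrin, a log2 fold change of 0.45 (SE 0.34). *Pdlim5*, a PDZ and LIM protein, had one of -1.01 (SE 0.75).

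**Figure D5:**
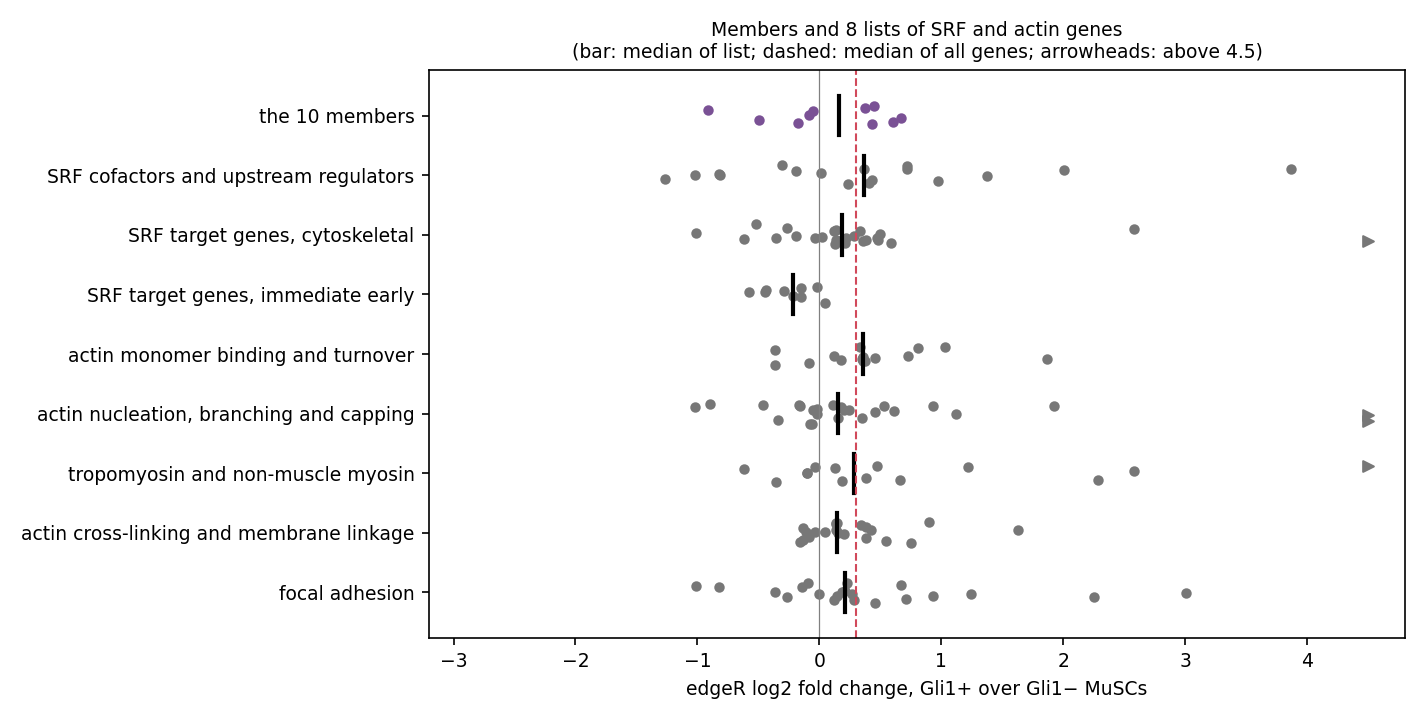
edgeR log2 fold changes (Gli1+ over Gli1-, x axis) of the 10 members and of the tested genes of 8 lists, 1 row per list and 1 point per gene. Black bars are medians, the dashed line is the median of all genes (0.30), and arrowheads are genes above 4.5, whose values depend on libraries without a read. The immediate early targets have the lowest median (-0.21) of the 8 lists.

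CArG boxes were also looked up in the lists. Among genes with a window, 7 of 24 cytoskeletal targets held one (*Acta1*, *Actc1*, *Cnn2*, *Fhl1*, *Fhl2*, *Filip1l* and *Myl9*, the set found by the search), as did *Egr2* alone of 6 immediate early targets. In the other lists it was 0 of 13 cofactors and regulators, 0 of 13 monomer binding genes, 1 of 20 nucleation genes, 2 of 14 tropomyosin and myosin genes, 1 of 18 cross-linking genes and 1 of 12 focal adhesion genes. Over all tested genes with a window it was 136 of 8727 (1.56%). The target lists were drawn up as targets of SRF, which binds this box, so nothing is read from their share. Of the 133 tested genes other than members with a CArG box in the window, 80 lay above 0 and 53 (39.8%) below, with a median log2 fold change of 0.14. For all 8719 such genes with a window, 34.8% lay below 0 and the median was 0.30. This difference was not tested.

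Markers of other cells also varied between libraries, and whether members varied with them was not tested. Summed over 11 markers, fibro-adipogenic progenitor (FAP) and fibroblast genes reached 1658, 3300 and 2428 CPM in Gli1- and 1702, 2545, 5460 and 8340 CPM in Gli1+ replicates. Smooth muscle and pericyte genes, also 11, summed to 850.4, 2188 and 1312 CPM in Gli1- and 1032, 1157, 3409 and 1861 CPM in Gli1+ replicates. The FAP sum was highest in Gli1+ replicates 3 and 4, the libraries highest for *Tpm1*, *Tpm4* and *Vcl*. Among Gli1- libraries the sum was highest in replicate 2, as were *Tpm1* and *Tpm4*, while *Vcl* was highest in replicate 3. The gate excluded Sca1+ cells, which FAPs are known to be. The smooth muscle sum was highest in Gli1+ replicate 3, the library highest for *Flna* and *Actb*, followed by Gli1- replicate 2. The smooth muscle gene *Cnn1* had no read in any library, while *Notch3*, expressed by pericytes and by MuSCs, had 505 to 744 CPM. Other genes of this list were read in every library. They were *Acta2* (116.4 to 924.9 CPM), *Rgs5* (65.5 to 868.5 CPM), *Tagln* (81.5 to 344.6 CPM) and *Myh11* (4.37 to 289.9 CPM), among others. The most abundant FAP marker, *Col3a1*, had 881 to 1278 CPM in Gli1- and 996.5 to 4131 CPM in Gli1+ libraries. In Gli1- replicate 1, where the FAP sum was 1658 CPM, *Col3a1* had 1182 CPM and *Dpt* 393.5 CPM. *Dcn* had 36.8 CPM and *Col1a1* 12.1 CPM there, and *Lum* and *Pdgfra* had no read. The sum in that library thus rested mainly on *Col3a1* and *Dpt*, and which cells gave these reads was not tested. Of 10 tested FAP markers, 9 lay above 0 and 1 below. The 1 below was *Ly6a*, which encodes Sca1. It had 14.55, 299.5 and 80.2 CPM in Gli1- and 17.1, 13.25, 165.4 and 51.7 CPM in Gli1+ replicates. *Pdgfra* was read in Gli1- replicate 2 (22.3 CPM) and Gli1+ replicates 2 and 3 (9.1 and 42.9 CPM) only. All marker genes of this paragraph except *Notch3* and *Col3a1* were named after their values were seen.

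Of the other marker lists, tenocyte genes (6, led by *Thbs4*) summed to 20 to 719 CPM in Gli1- and 26 to 1174 CPM in Gli1+ libraries. Endothelial genes (8, led by *Pecam1*) summed to 152.5 to 973 CPM and 148 to 1337 CPM, although the gate excluded CD31+ cells, which *Pecam1* encodes. Immune genes (9, led by *Lyz2*) summed to 11.8 to 133 CPM and 0 to 235 CPM, with 7 of the 9 without a read in Gli1- libraries. *Ptprc*, which encodes the CD45 that the gate excluded, was among these 7 and was read only in Gli1+ replicate 3 (8.91 CPM). Of 3 tested immune genes, 2 lay above 0 and 1 below. The 1 below was *S100a8*. It had 0, 65.8 and 62.7 CPM in Gli1- replicates and at most 0.185 CPM in Gli1+ libraries. Of the 2 above, *C1qa* had no read in Gli1- libraries and 0, 0, 86.1 and 9.97 CPM in Gli1+ replicates. *S100a8* and *C1qa* had unadjusted p of 0.0115 and 0.0304 in edgeR, and neither passed an adjusted p of 0.05. *Ptprc*, *S100a8* and *C1qa* were named after their values were seen. Mature myofibre genes (13, led by *Acta1*) summed to 70.9 to 136 CPM and 40.7 to 289 CPM. MuSC markers (10, led by *Chodl*) summed to 5200 to 8031 CPM in Gli1- and 5076 to 7579 CPM in Gli1+ libraries. Every marker sum given here overlapped between the groups, and their part in the members' values was not tested. Without the 3 libraries highest in non-myogenic markers (Gli1- replicate 2, Gli1+ replicates 3 and 4), which leaves 2 libraries against 2, the log2 fold change was -1.17 for *Srf*, 0.29 for *Tpm1*, 0.23 for *Flna* and 0.13 for *Vcl*. It was -0.94 for *Tpm3* and -0.63 for *Actg1*. Gli1+ replicates 3 and 4 were also the libraries highest for *Tpm1* and *Vcl*, and replicate 3 was that for *Flna*. Leaving these libraries out lowers the Gli1+ means of these genes whatever the markers, so nothing about the markers is read from this.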

How the data were processed

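RNA from sorted MuSCs was extracted with Trizol, and 1 ng was used for each library (VAHTS Universal V8 kit, Illumina NextSeq). The authors deposited raw counts of reads per gene for 4 Gli1+ and 3 Gli1- libraries, which were used as deposited. The study's methods name STAR on GRCm38, tximport and DESeq2. CASAVA and HISAT2 2.0.5 are the tools in the submitters' processing notes. The sources used here give no strand setting for the counting. The 14 columns of normalized values per sample, and the deposited fold changes and p-values, which come from the authors' own comparison, were not used. Of the 13280 rows, 40 have no symbol.

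The 11134 genes with 5 or more reads in 2 or more libraries were tested in R 4.3.3 with edgeR 4.0.16's quasi-likelihood test (TMM scaling, robust, two-sided, Benjamini-Hochberg over all tested genes). The biological coefficient of variation was 1.76. Fold changes are Gli1+ over Gli1-. The script was tested on simulated data with known changes. Intervals and floors cover counting error only. Alternatives used DESeq2 1.42.0, limma 3.58.1, other scalings and filters, the replicate number as a block, and fewer libraries. No pair of libraries within a group was a copy (chi-square per degree of freedom 113 or more). Lengths, overlaps and shared 31-base stretches come from GENCODE M21.

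The members and lists were chosen with earlier results of these data known. The genes named are the 10 members, *Mrtfa*, *Mrtfb*, *Gli1*, *Pax7*, the 3 genes of smallest p and the gene of highest level per length in each pathway list, the marker of highest CPM in each marker list (1 marker list is not reported here), and the 5 genes nearest to *Srf*. Other names are said to be chosen after their values were seen or follow from a search.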

Additional observations from a re-analysis of the deposited data

Results flagged for a closer look

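*Flna* in Gli1+ MuSCs had 1 library far from the others. Gli1+ replicate 3 had 793.5 CPM, and the other 3 had 390.1, 433.8 and 457.1 CPM. Its gap to the next library was above the 95% critical value of Dixon's test for 4 values. The Gli1+ groups of 10 members were examined in this way, and chance flags about 1 in 20 groups. Gli1+ replicate 3 was also highest for smooth muscle and pericyte markers (3409 CPM summed, against 850.4 to 2188 CPM in the other 6 libraries), and their part in the level of *Flna* was not tested.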

How the results depend on the processing

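*Srf* kept its direction in 17 of 17 alternatives, as did *Actg1*, *Cfl1*, *Tpm1*, *Tpm3*, *Tpm4*, *Flna* and *Vcl*, while *Actb* changed sign in 3 of 17 and *Svil* in 6 of 15. *Actg1* reached -0.00021 (log2 fold change) without Gli1+ replicate 2 and *Tpm3* -0.02 without the sparse libraries. The members' median (0.16) ran from 0.0019 to 0.45 when 1 library was left out. The counts at an unadjusted p under 0.05 (238, of which 170 higher and 68 lower, and 2 pathway genes) depended on the processing, and the cause was not tested. They were 96, 34 higher, and 1 pathway gene with at least 5 reads required in all 7 libraries, where fewer genes are tested. DESeq2 gave 509, 434 higher, and 4 pathway genes, with 66 at an adjusted p under 0.05, and limma-voom gave 811, 723 higher, and 7 pathway genes. Without robust estimation they were 122, 88 higher, 34 lower, and 0 pathway genes. Leaving out 1 library in turn gave 100 to 1257, 70 to 1207 higher, 27 to 58 lower, and 0 to 6 pathway genes, with 0 to 2 genes at an adjusted p under 0.05. The highest of these, 1257, came without Gli1- replicate 1, and the 100 without Gli1- replicate 3. *Svil*, *Mrtfa* and *Mrtfb* had no read in 3 or 4 libraries, which limits any comparison of them, and *Svil* had none in Gli1- replicate 1, the deepest library. Of 2 alternatives chosen after seeing the data, leaving out the 3 libraries highest in non-myogenic markers gave 119, 50 higher, and 1 pathway gene, and leaving out the 2 sparse Gli1- libraries, where the lone Gli1- library is assumed to vary like the Gli1+ group, gave 66, 57 higher, 9 lower, and 0 pathway genes.

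Replicate numbers are shared between the groups, and with the replicate number as a block the counts were 78, 34 higher, 44 lower, and 1 pathway gene, with a log2 fold change of *Srf* of -1.01. Deviations of same-numbered libraries correlated at 0.242, -0.114 and 0.0692. Gli1- replicates 1 and 3 correlated best with their own number, and Gli1- replicate 2 with Gli1+ replicate 3 (0.129). The numbers were not taken to pair the samples, and these few correlations cannot exclude a pairing.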
